A study of Mus musculus with 6 samples.

Results

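Smooth muscle cells of whole lungs at embryonic day (E) 18.5 were selected on measured genes in 2 droplet libraries. A cell was kept when it had at least 700 genes and 0.5% to 10% mitochondrial values after the authors' correction for free RNA. A kept cell was called smooth muscle when its corrected values reached 10 for Acta2 and 4 for Myh11, Cnn1 and Actg2 together, and stood at exactly 0 for Pdgfra, for Cox4i2 and Higd1b, for Pecam1 and Cdh5, for Epcam and for Ptprc. This gave 111 cells in the library labelled control and 99 in the library labelled null, 210 of the 16515 kept whole-lung cells and of the 63659 called cells of all 6 libraries of the study. The selection used these genes, so their levels below are descriptions.

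The lungs came from mice in which DsRed had been inserted into exon 1 of Cxcl12. The labels give Cxcl12DsRed/+ for the control and Cxcl12DsRed/DsRed for the null library, so cells of both libraries carried at least 1 reporter allele and no library of lungs without the reporter was used. Neither group carried a Cre, and the reporter allele is present in every cell of the animal. Lungs were digested with collagenase I, dispase and DNase, and 3′ tags were sequenced with unique molecular identifiers (UMIs). The labels carry 1 protocol for all libraries of the study, with a sort that removes CD45 and EpCAM cells, while these 2 libraries are titled without a sort. In them 9.64% and 5.75% of kept cells had corrected Epcam and 10.6% and 9.60% corrected Ptprc, so shares of kept cells are given with that doubt. Each genotype had 1 library from a pair of lungs, and the labels do not tie cells to embryos, so no test between genotypes was possible and no p-values are given.

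The values of the targeted gene went against the labels. Cxcl12, which encodes a chemokine and lies at 6:117168535-117181367 on the + strand (mm10), had 109 UMIs or 1.28 counts-per-million (CPM) in the library labelled control and 19986 UMIs or 193 CPM in the library labelled null. In the smooth muscle cells it had 0 and 64 UMIs. A 3′ tag lies outside the altered exon 1, and the names of the deposited matrices also give the genotypes the other way round from the labels. No direction below can therefore be assigned to a genotype with certainty. Every direction is given as the library labelled null over the library labelled control. Sex also differed, since Xist stood at 0.598 and 770 CPM and the Y-linked Ddx3y at 74.4 and 35.4 CPM. Among the smooth muscle cells labelled control, 86 had Y-linked UMIs alone and 0 had Xist alone, against 23 and 55 of those labelled null, so the latter library held cells of more than 1 embryo. The authors' correction removed 39.7% of UMIs in the library labelled control and 18.1% in the library labelled null. Levels below are therefore raw summed UMIs in CPM unless named as corrected. The libraries held 85322352 and 103353686 UMIs, and 140 cell barcodes occurred in both, of which 0 were smooth muscle cells in both. Intervals are exact at 95% and cover counting error alone.

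Smooth muscle cells contract through the sliding of smooth muscle myosin along actin, a machinery switched on by serum response factor with its partner myocardin. In the lung they form bands around the airways and layers around the vessels. Airway muscle arises next to epithelium that secretes hedgehog ligand, and vessel muscle lies against endothelium that presents Notch ligands to the receptor NOTCH3. Pericytes share NOTCH3 with vessel muscle, and the alveolar myofibroblasts of late gestation share contractile actin with both.

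Serum response factor binds the CArG box, and 2 promoters of contractile genes that held one are shown, that of Actc1, on which the cells are split below, and that of Myl9, a contractile gene that the selection did not use. Among 32851 RefSeq promoters of mouse (GRCm38.p6, 250 bases before to 50 after each start), 535 or 1.63% held an exact CArG box on either strand. Of the 24 contractile genes listed for this work, 20 had a promoter in the table, and 5 of their 23 promoters (21.7%) held the box. They belonged to Actc1, Cnn2, Myl6, Myl9 and Vcl. Actc1, cardiac alpha actin, differed between the groups of smooth muscle cells described below. Myl9, the regulatory light chain of smooth muscle myosin, stood at 1391 and 1506 CPM over all of them in the libraries labelled control and null. Both promoters are printed 5′ to 3′ on the strand of the gene with the CArG box in capitals. The Actc1 window is 2:114052826-114053125 (- strand) with the box 47 bases before the start, and the Myl9 window is 2:156775214-156775513 (+ strand) with the box 161 bases before it.
Actc1: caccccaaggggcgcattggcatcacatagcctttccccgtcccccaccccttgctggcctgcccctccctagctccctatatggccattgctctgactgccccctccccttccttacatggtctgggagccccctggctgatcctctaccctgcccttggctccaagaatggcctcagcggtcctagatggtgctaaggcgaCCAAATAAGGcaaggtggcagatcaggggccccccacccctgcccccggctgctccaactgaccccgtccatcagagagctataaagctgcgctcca
Myl9: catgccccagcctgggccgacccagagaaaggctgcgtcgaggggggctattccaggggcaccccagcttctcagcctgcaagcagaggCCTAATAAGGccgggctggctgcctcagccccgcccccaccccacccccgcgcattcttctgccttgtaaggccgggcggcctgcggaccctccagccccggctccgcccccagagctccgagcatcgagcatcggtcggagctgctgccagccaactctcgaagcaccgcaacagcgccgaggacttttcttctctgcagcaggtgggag
The promoters of Acta2, Cnn1 and Des in the table held no exact match, which says only that these letters are not in that window. Myh11, Tagln and Actg2 were not looked up elsewhere.

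Smooth muscle cells made up 1.49% of kept cells (95% interval 1.23% to 1.79%) in the library labelled control and 1.09% (0.888% to 1.33%) in the library labelled null. The difference was 0.398 percentage points (Newcombe's 95% interval 0.054 to 0.757), which covers counting error alone, as there is no replicate. With the rule on raw counts the shares were 1.07% and 0.915%, and on raw counts thinned to 3000 UMIs per cell 1.24% and 1.10%. The rule narrowed 761 and 1531 cells with enough Acta2 to 409 and 880 with the other muscle genes, then to 218 and 226 without Pdgfra and to 116 and 102 without Cox4i2 and Higd1b, and the remaining criteria left 111 and 99. Most muscle-like cells thus failed on Pdgfra, a receptor of alveolar myofibroblasts, or on the pericyte genes Cox4i2 and Higd1b. Near the Acta2 limit, 7 and 8 cells lay just inside with corrected values of 10.9 to 14.5, and 8 and 4 lay just outside with 5.42 to 9.98. Of these, 7 and 7 inside and 8 and 4 outside had Hhip. The cells had a median of 7424 UMIs labelled control (range 3363 to 29452) and 7865 labelled null (2360 to 25202), near the medians of 7891.5 and 9001 of all kept cells.

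The contractile genes that define smooth muscle were high in the selected cells. Acta2, smooth muscle alpha actin (19:34241090-34255590, - strand), stood at 6462 CPM (6295 to 6632) in the cells labelled control and 6776 CPM (6599 to 6956) in those labelled null. Per cell it ranged from 12 to 163 raw UMIs with a median of 44 in the former and from 12 to 185 with a median of 43 in the latter, and the libraries overlapped throughout. Tagln, an actin-binding protein, stood at 7119 and 6734 CPM. Myh11, the smooth muscle myosin heavy chain (16:14194535-14291372, - strand), stood at 1452 and 1406 CPM, and Cnn1, calponin (9:22099216-22109630, + strand), at 287 and 304 CPM. Myh11 UMIs occurred in 110 of 111 and 98 of 99 cells and Cnn1 UMIs in 79 and 74. Levels are 3′ tags and were not scaled by length, as 1 transcript gives 1 tag whatever its length. Marker lists of neighbouring mesenchymal cells were present at lower levels than in those cells. The rule held Cox4i2, Higd1b and Pdgfra at 0, while the cells compared were cut on them, so the selection partly fixed this direction. The endothelial, epithelial and immune lists likewise hold genes that the rule kept at 0. The 10 pericyte markers summed to 1286 and 1364 CPM, against 5407 and 5184 CPM in pericytes as defined below, and the 8 myofibroblast markers to 2003 and 2486 CPM, against 4914 and 4674 CPM in the cells with Pdgfra and Acta2. The summed endothelial list stood at 104 and 82.7 CPM, the immune list at 128 and 46.2 CPM and the mesothelial, cartilage, glial and red cell lists at up to 28.3 CPM each. The epithelial list stood at 623 and 130 CPM, and 401 of the 459 UMIs of its main gene Sftpc labelled control lay in 1 cell. The cardiac genes Myh6 and Nppa had 0 UMIs in both libraries, which allows up to 3 UMIs or 3.40 CPM labelled control. Tnnt2, another gene of the cardiac list, was present, and its levels are given under the other observations. Scrublet called 3 of the 111 and 0 of the 99 cells doublets.

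The genes Hhip and Notch3 split the smooth muscle cells. Hhip encodes a hedgehog-binding protein that hedgehog signalling induces (8:79965851-80058006, - strand), and Notch3 (17:32120820-32166852, - strand) encodes the receptor named above. Cells with corrected Hhip and no Notch3 numbered 102 labelled control, or 91.9% (85.2% to 96.2%), and 78 labelled null, or 78.8% (69.4% to 86.4%). Cells with Notch3 and no Hhip numbered 5, or 4.50% (1.48% to 10.2%), and 12, or 12.1% (6.42% to 20.2%). Both genes were found in 0 and 6 cells and neither in 4 and 3. Hhip had 4 to 53 raw UMIs per cell in the Hhip class labelled control, with a median of 20, and 3 to 42 labelled null, with a median of 17, so the class did not rest on single molecules. Notch3 had 1 to 3 and 1 to 7 UMIs in the Notch3 class, so some vessel-type cells could have been missed at this depth. After each cell was thinned to 3000 UMIs the Notch3 class was 1.80% of cells labelled control (2 of 111) and 5.10% of those labelled null (5 of 98). In the Hhip class labelled control, 6 cells had a raw Notch3 UMI that the correction removed. The 6 cells with both genes had 155 Hhip UMIs, 7 Notch3 UMIs and 0 UMIs of the Notch target Heyl.

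**Figure D1:**
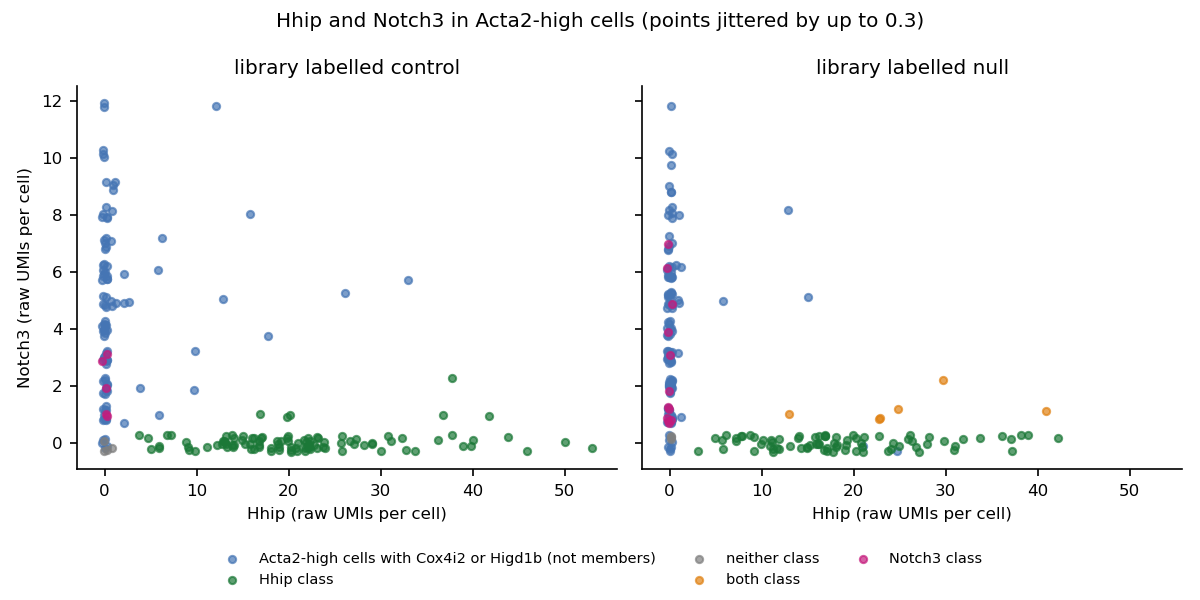
Raw UMIs of Hhip (x axis) and Notch3 (y axis) in each cell, with 1 panel per library. Points are single cells, coloured by class, with Acta2-high cells that had Cox4i2 or Higd1b (not called smooth muscle here) in blue. Cells of the Hhip class lay along the x axis with up to 53 Hhip UMIs, and those of the Notch3 class and the blue cells mostly along the y axis.

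Most Acta2-high cells with Notch3 had been left out by the rule. A further 102 cells labelled control and 124 labelled null met every criterion but the absence of Cox4i2 and Higd1b. Of them, 97 (95.1%) and 114 (91.9%) had corrected Notch3 without corrected Hhip. Raw Hhip UMIs occurred in 24 of the 102 and 12 of the 124 cells, with up to 33 and 25 in 1 cell. The correction left Hhip in 0 of the cells labelled control, so this separation rests in part on the correction. Of the 102 and 124 cells, 74 and 78 also met a separate definition of pericytes (Cox4i2 and Higd1b together at least 3), so vessel muscle and pericytes were not separated among them. They are called Cox4i2/Higd1b cells below and serve as a larger group beside the Notch3 class of 5 and 12 cells.

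Acta2 and Tagln were within 2-fold in the Hhip and Notch3 classes of both libraries, while Myh11 and Mylk were further apart. The classes were cut on genes of the same cells, so these values are descriptions. A gene was counted as different when it was at least 2-fold apart in the same direction in both libraries and reached 50 CPM in 1 class of each. Of 3426 genes, 263 (7.68%) were higher in the Notch3 class and 446 (13%) in the Hhip class, and the intervals of 166 and 159 of these lay past 0 in both libraries. A gene that reached 50 CPM in 1 class alone had its direction fixed by that limit. Of the 1874 genes that reached it in both classes of both libraries, 58 were higher and 80 lower in the Notch3 class. Of the 22 contractile genes tested, 20 of them at 50 CPM in both classes, 1 was higher and 4 were lower in the Notch3 class, all 5 of them among those 20, with a median log2 ratio of -0.13 against -0.11 and -0.16 over all genes. Acta2 stood at 6363 and 6318 CPM in the Hhip class (labelled control and null) and at 7462 and 9356 CPM in the Notch3 class. Tagln stood at 7209 and 6761 CPM against 6170 and 7635 CPM. The 4 lower genes were Myh11, Actc1, Mylk and Des. Myh11 stood at 1555 and 1694 CPM in the Hhip class and at 369 (202 to 619) and 367 (264 to 496) CPM in the Notch3 class. Actc1 stood at 1787 and 1524 CPM against 79.1 and 253 CPM, and the intermediate filament gene Des at 624 and 818 CPM against 211 and 271 CPM. Mylk, the kinase that activates smooth muscle myosin, stood at 1451 and 1375 CPM against 211 and 192 CPM. The higher gene was Vim, vimentin, at 594 and 741 CPM in the Hhip class and 5379 and 6630 CPM in the Notch3 class.

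All 7 hedgehog genes tested passed the limit through the Hhip class alone, which fixed their direction, and Hhip also cut the classes. The 6 lower in the Notch3 class were Hhip, Ptch1, Foxf1, Gas1, Boc and Cdon. Ptch1, the hedgehog receptor and itself a target, stood at 261 and 222 CPM in the Hhip class and at 1 and 4 UMIs (26.4 and 34.9 CPM) in the Notch3 class. Foxf1, a transcription factor of lung mesenchyme downstream of hedgehog, stood at 287 and 405 CPM against 26.4 and 34.9 CPM. Gas1, a co-receptor, had 219 and 221 CPM against 0 UMIs, and was at least 2.77-fold and 8.43-fold higher in the Hhip class against a limit of 3 UMIs in the Notch3 class. The 8 tested genes of the airway muscle list, which shares Hhip, Ptch1 and Foxf1 with the former, also passed through the Hhip class alone. Chrm2, a muscarinic acetylcholine receptor of airway muscle, stood at 333 and 323 CPM against 0 UMIs, at least 4.21-fold and 12.3-fold.

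Of the 11 listed Notch genes, 7 could be tested, and those higher in the Notch3 class were Notch3 itself, Notch1, Heyl, Nrarp, Hes1 and Jag1. Of these, Rbpj alone reached 50 CPM in the Hhip class, and the other 6 passed the limit only through the class where they were high, which fixed their direction. Heyl, a target repressor, stood at 211 and 227 CPM in the Notch3 class and at 1 UMI and 0 UMIs in the Hhip class. Nrarp, a target that restrains Notch, had 4 and 13 UMIs (105 and 114 CPM) against 0 UMIs. Hes1 stood at 290 and 114 CPM against 6.19 and 13.4 CPM, and the ligand gene Jag1 at 105 and 61.2 CPM against 11.1 and 1.67 CPM. Of 12 tested vascular muscle genes, 6 passed through the Notch3 class alone and 3 through the Hhip class alone, and the other 3, Gucy1a1, Gucy1b1 and Mustn1, were under 2-fold apart in 1 or both libraries. Of 6 tested pericyte markers, 2 reached the limit in both classes, of which Ndufa4l2 was higher in the Notch3 class (1239 and 777 against 423 and 249 CPM) and Kcnk3 was not counted. The pericyte list of 10 summed to 2373 (1908 to 2917) and 1337 (1133 to 1566) CPM in the Notch3 class against 1250 and 1495 CPM in the Hhip class. Cox4i2, which the rule kept out, had 0 UMIs in the Notch3 class of both libraries. The part of pericytes in these values was not tested. Ebf1, a transcription factor of mural cells, stood at 264 and 166 CPM against 0 and 2 UMIs. The leading genes by ratio in the Notch3 class were Grp, Sost, Cxcl13, Olfml2a, Pclo, Heyl, Nrarp, Kcna5, Ebf1, Hmmr, Tinagl1 and Rgs7bp. Grp, a neuropeptide gene, had 6 UMIs in the 5 cells labelled control and 59 in the 12 labelled null, against 0 UMIs in the Hhip class. Kcna5, a voltage-gated potassium channel of pulmonary artery muscle, had 10 and 17 UMIs against 0 and 1. Several of these ratios rest on 10 or fewer UMIs.

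**Figure D2:**
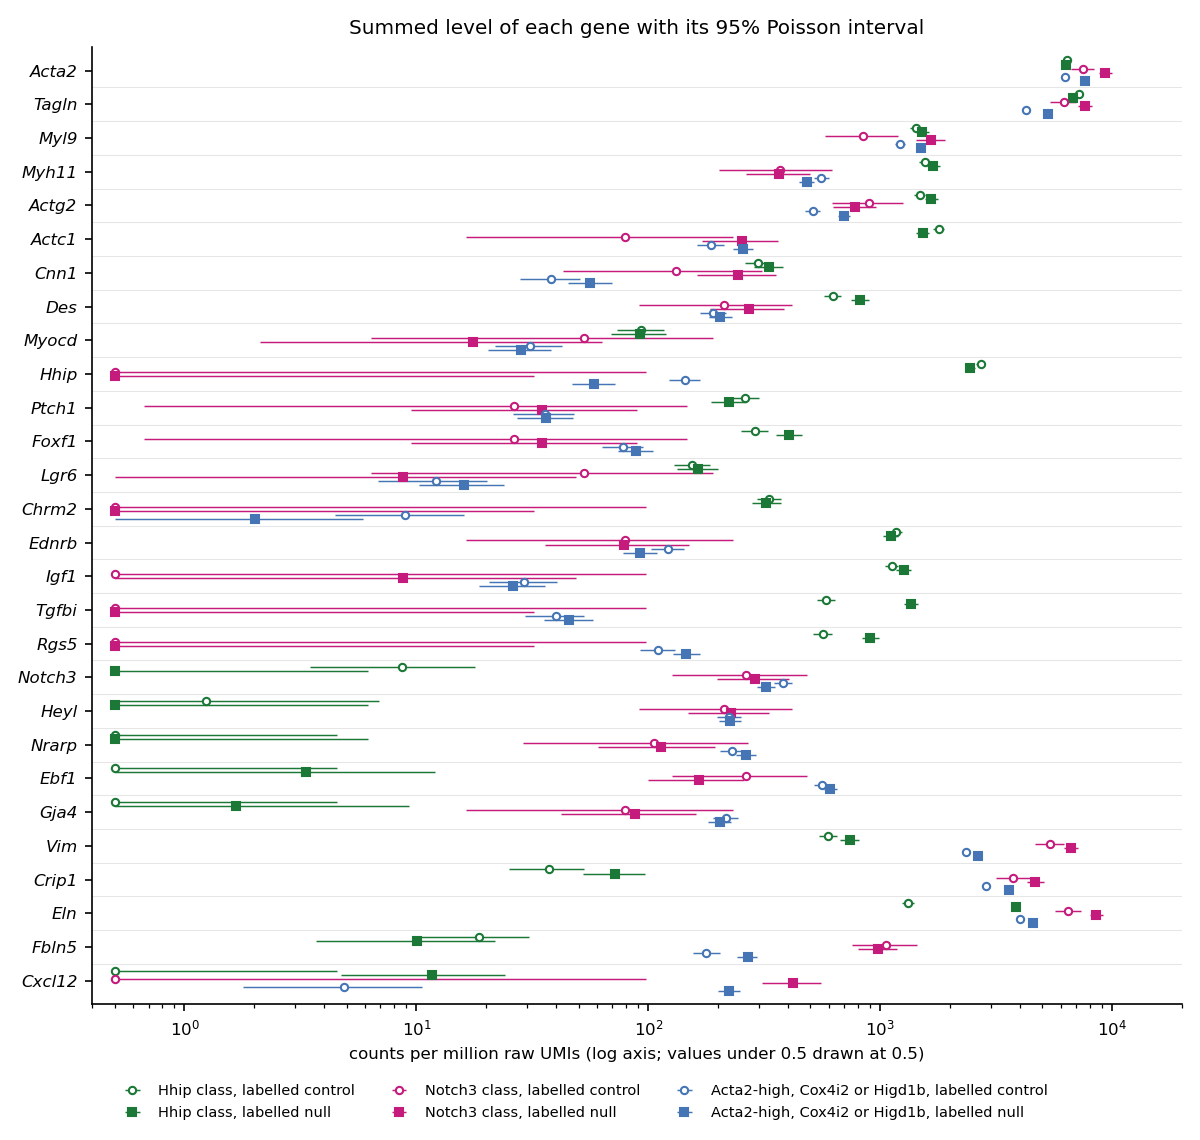
Summed level of each gene in CPM of raw UMIs (x axis, log scale, values under 0.5 drawn at 0.5) in the Hhip class, the Notch3 class and the Cox4i2/Higd1b cells of each library, with exact 95% Poisson intervals as lines. Acta2 and Tagln stood at 4259 to 9356 CPM in all 3 groups, Hhip to Rgs5 were highest in the Hhip class, and Notch3 to Gja4 were near 0 there.

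Some genes of vessel and airway tone differed. Of 12 tested tone genes, 5 reached the limit in both classes, and 3 of these, Ednrb, Rgs2 and Pde5a, were lower in the Notch3 class. Ednrb, an endothelin receptor, stood at 1167 and 1107 CPM in the Hhip class against 79.1 and 78.6 CPM. Rgs2, a brake on G-protein signalling, stood at 2559 and 2350 CPM against 105 and 61.2 CPM. Rgs5, known as a mural cell gene, stood at 565 and 907 CPM in the Hhip class and 0 UMIs in the Notch3 class. It passed the limit through the Hhip class alone, which fixed its direction. Of the Cox4i2/Higd1b cells, which the rule left out, 42 of 102 and 44 of 124 had Rgs5 UMIs. Of 14 tested growth factor genes, 5 reached the limit in both classes, with 1 of these higher and 0 lower. The genes Igf1, Wnt5a and Tgfbi passed it through the Hhip class alone, which fixed their direction. The growth factor gene Igf1 stood at 1121 and 1261 CPM against 0 and 1 UMI, and Wnt5a at 160 and 348 CPM against 0 UMIs. Tgfbi, a matrix protein induced by TGF-beta and listed here as a myofibroblast gene, stood at 583 and 1360 CPM against 0 UMIs. Of 28 matrix genes, 20 reached the limit in both classes, with 3 of these higher and 5 lower in the Notch3 class. Eln, elastin (5:134702593-134747323, - strand), stood at 6460 (5676 to 7322) and 8535 (8008 to 9087) CPM in the Notch3 class and at 1323 and 3856 CPM in the Hhip class. Fbln5, which assembles elastic fibres, stood at 1055 and 978 CPM against 18.6 and 10.0 CPM, and passed the limit through the Notch3 class alone, which fixed its direction. Col3a1, fibrillar collagen III, was opposite at 132 and 140 CPM against 1931 and 1930 CPM.

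The larger group of Cox4i2/Higd1b cells was compared with the Hhip class in the same way. Against the Hhip class, 239 of 3307 genes (7.23%) were higher and 355 (10.7%) lower in it, and all of their intervals lay past 0 in both libraries. Most Notch, hedgehog and airway genes again passed the limit through 1 group alone, which fixed their direction. These were 6 of 7 Notch, 5 of 7 hedgehog and 6 of 8 airway genes. Hhip and Foxf1 reached the limit in both groups and were lower in the Cox4i2/Higd1b cells. Nrarp stood at 229 and 263 CPM, Heyl at 223 and 226 CPM and Ebf1 at 560 and 610 CPM. Of the 22 contractile genes, 7 were lower and 1 was higher. Of the 19 at 50 CPM in both groups of both libraries, 5 were lower and 1 was higher. Cnn1 (38.2 and 56.2 CPM) and Actg2 (511 and 698 CPM) were among those lower here but not in the Notch3 class. Labelled control, Cnn1 passed the limit through the Hhip class alone, which fixed its direction. Cnn1 in the Notch3 class stood at 132 and 245 CPM. Eln stood at 4021 and 4555 CPM, which was 2-fold above the Hhip class in the library labelled control alone. Pericytes as defined above had 3053 and 3201 CPM of Acta2 and 10.1 and 12.5 CPM of Cnn1, below the smooth muscle cells. Acta2 and Cnn1 were used to select the smooth muscle cells and not the pericytes, so this direction follows in part from the rule. Cells with Pdgfra and Acta2 had 1571 and 1324 CPM of Hhip, 1723 and 1402 CPM of Ednrb and 924 and 1465 CPM of Tgfbi. Actc1 at 2.36 and 1.28 CPM and Chrm2 at 3.47 and 1.65 CPM were near 0 there, while Hhip was not.

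Within the Hhip class the cells fell on either side of Actc1 and Chrm2, a split chosen after the values were seen. Actc1 (2:114047282-114053548, - strand) ranged from 0 to 96 UMIs per cell with a median of 4 labelled control and from 0 to 122 with a median of 0 labelled null. Cells with no UMI of Actc1 or Chrm2 numbered 23 of 102, or 22.5% (14.9% to 31.9%), labelled control and 32 of 78, or 41.0% (30.01% to 52.7%), labelled null. Thinned to 3000 UMIs, the shares were 24.5% (16.5% to 34.0%) of 102 and 49.4% (37.8% to 61.0%) of 77 cells. Among the Pdgfra cells, 1.43% and 1.63% had such a UMI, which bounds the signal from free RNA. The cells without these UMIs were shallower, with a median of 5959 against 7804 UMIs labelled control and 7262.5 against 8162 labelled null.

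Cells without Actc1 and Chrm2 had more elastin, and their contractile genes stood on the whole somewhat lower. Acta2 stood at 5302 and 5694 CPM in them against 6583 and 6699 CPM in the others, and Hhip at 3638 and 2135 CPM against 2513 and 2635 CPM. Of 3310 genes, 66 (1.99%) were at least 2-fold higher and 46 (1.39%) at least 2-fold lower in both libraries, with intervals past 0 in both for 52 and 36. Of 22 contractile genes, 3 were lower and 0 higher, with a median log2 ratio of -0.42 against 0.08 and 0.02 over all genes in the libraries labelled control and null. Those lower included Actc1 itself and Des (252 and 485 against 701 and 1021 CPM). Eln stood at 2471 (2216 to 2747) and 7145 (6801 to 7502) CPM in the cells without and at 1085 and 1846 CPM in the cells with these UMIs. Wif1, a secreted Wnt inhibitor, led the higher genes at 223 and 322 CPM against 19.4 and 10.8 CPM. Others were the elastic fibre gene Fbln1 (317 and 344 against 58.3 and 67.4 CPM), Gdf10, Nrxn3, Lnx1, P4ha3, Lrrtm3, Adgrg2, Zfp536, Piezo2, St3gal4 and Fam210b. Enpp2, the lipid-signalling enzyme autotaxin, stood at 1160 and 697 CPM against 348 and 253 CPM. The lower genes included Ndufa4l2 (57.6 and 30.9 against 499 and 383 CPM), the mesenchymal transcription factor gene Tcf21 and Thbd, thrombomodulin. Of 6 tested myofibroblast markers, 1 was higher, Enpp2, and the median log2 ratio of the list was 1.04. Tgfbi stood at 944 and 1941 CPM against 508 and 1005 CPM. Fgf18, a growth factor gene, stood at 238 and 494 CPM against 136 and 162 CPM. Raw Pdgfra UMIs numbered 10 and 0 in these cells, but the rule held corrected Pdgfra at 0, so no direction is read from them. The part of myofibroblasts in the split was not tested. The early response genes Fos, Junb and Atf3 were higher too, 3 of 16 genes of the dissociation stress list, and their part in the split was not tested.

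Between the libraries, elastin was more than 2-fold apart in the smooth muscle cells and no contractile gene was. A gene was counted when it was at least 2-fold apart in both raw and corrected values and reached 50 CPM in 1 library. Of 3418 genes, 44 (1.29%) were higher and 33 (0.965%) lower in the library labelled null. Most of them in each direction reached 50 CPM in 1 library alone, which fixed their direction. Some of the lower genes rested mostly on 1 cell labelled control, such as C1qb (51 of 52 UMIs) and Pf4 (49 of 82 UMIs). In the Hhip class alone the counts were 35 (0.993%) and 35 (0.993%) of 3524. The median log2 ratio of all genes was -0.01. None of the 22 contractile, 9 airway, 7 hedgehog, 6 vascular and 12 tone genes tested reached the 2-fold limit in either direction, which few genes of any kind did, and the contractile median was 0.00. In the Hhip class the log2 ratio of Acta2 was -0.01 (-0.07 to 0.05), of Myh11 0.12 (0.00 to 0.24), of Hhip -0.15 (-0.24 to -0.05) and of Chrm2 -0.04 (-0.32 to 0.23). Acta2, Myh11 and Hhip were used to select or class the cells, so their ratios are descriptions.

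Cxcl12 had 0 UMIs in the cells labelled control and 64 (77.8 CPM) in those labelled null, at least 22.9-fold higher against a limit of 3 UMIs. Of these 64 UMIs, 48 lay in the 12 cells of the Notch3 class (419 CPM, 309 to 556) and 7 in the 78 cells of the Hhip class (11.7 CPM, 4.71 to 24.1). The Cox4i2/Higd1b cells had 4.87 and 224 CPM. Cxcl12 was thus found mostly in the cells with Notch3, in the library whose label says that both alleles carry the insertion. Its receptors were nearly absent, with 3 and 2 UMIs of Cxcr4 and 3 and 1 of Ackr3 in all smooth muscle cells.

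Of 29 matrix genes tested, 5 were higher and 0 lower in the library labelled null, with a median log2 ratio of 0.34. Eln stood at 1692 CPM (1494 UMIs) labelled control and 4373 CPM (3595 UMIs) labelled null, a log2 ratio of 1.37 (1.28 to 1.46). In the Hhip class the log2 ratio was 1.54 (1.44 to 1.65), or 3.12 in corrected values, against 0.40 in the Notch3 class, 0.18 in the Cox4i2/Higd1b cells and 0.66 in all other kept cells. Among Hhip cells with Actc1 or Chrm2 it was 0.77 (0.61 to 0.92) and among those without it was 1.53 (1.36 to 1.70), while the latter made up a larger share of the class labelled null. Of 7 tested myofibroblast markers, 0 were counted as higher or lower over all smooth muscle cells and 1 as higher in the Hhip class. They had a median log2 ratio of 0.67 over all smooth muscle cells and 0.90 in the Hhip class, above the 0.34 and 0.31 of the matrix genes. The list of 8 summed to 2122 (2023 to 2225) and 3026 (2888 to 3169) CPM in the Hhip class, and the marker counted there was Htra1 at 86.6 and 204 CPM. The rule held corrected Pdgfra at 0, so its 48 and 8 raw UMIs in all smooth muscle cells were those that the correction took out. The correction took 39.7% and 17.7% of the UMIs of these cells, so no direction is read from Pdgfra. The part of myofibroblasts in the elastin values was not tested. Pdgfra cells had 2915 and 6291 CPM of Eln. Per 10000 UMIs of a cell, Eln in the Hhip class had a lowest value of 0 in both libraries, a median of 7.90 and 23.1 and a highest value of 64.8 and 222. The libraries overlapped, and the cells above 64.8 were those labelled null. Lox, the enzyme that crosslinks elastin, stood at 73.0 and 191 CPM in the Hhip class, a log2 ratio of 1.38 (0.92 to 1.86), or 4.28 in corrected values. Tnc, tenascin C, and Dcn, decorin, were counted too, with 34.0 and 73.0 CPM and 36.3 and 79.1 CPM. Both reached 50 CPM in the library labelled null alone, which fixed their direction. The log2 ratio of Tnc was 1.09, against 0.09 in all other kept cells. That of Dcn was 1.11, against 1.81 in all other kept cells and 2.48 in the Cox4i2/Higd1b cells. Of the 32 Dcn UMIs labelled control, 14 lay in 1 cell. Fbln5 was counted over all smooth muscle cells (77.0 and 203 CPM) with 15 and 6 of its 68 and 167 UMIs in the Hhip class, 40 and 112 in the Notch3 class and 13 and 49 in the cells with neither Hhip nor Notch3. In the Hhip class Mfap5, a microfibril gene, had a log2 ratio of 1.41 (0.89 to 1.96) and Tgfbi of 1.22 (1.06 to 1.39), the latter short of the 2-fold limit in corrected values. Mgp, a calcification inhibitor, stood lower at 4080.4 and 3159 CPM.

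**Figure D3:**
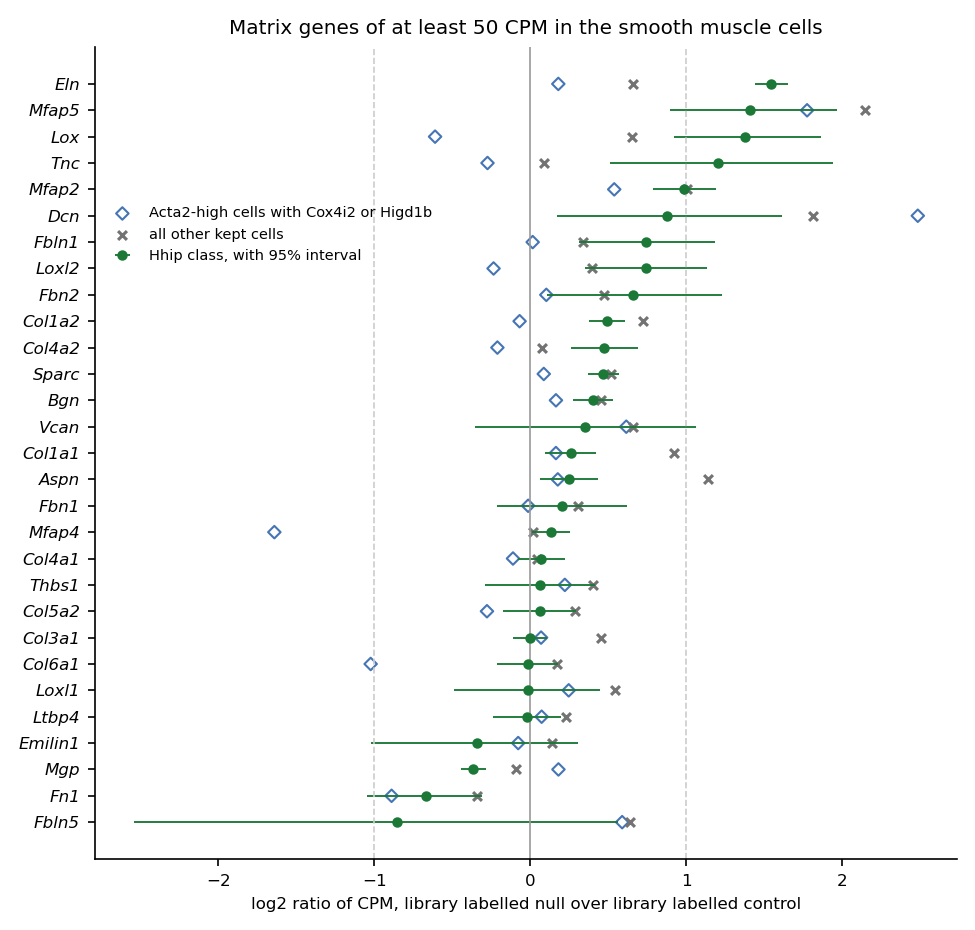
Log2 ratio of CPM, library labelled null over library labelled control (x axis), for matrix genes (y axis) in the Hhip class (green, lines are exact 95% intervals), the Cox4i2/Higd1b cells (blue) and all other kept cells (grey). Dashed lines mark 2-fold, and Eln at 1.54 and Lox at 1.38 lay past it in the Hhip class but at 0.18 and -0.61 in the Cox4i2/Higd1b cells.

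**Figure D4:**
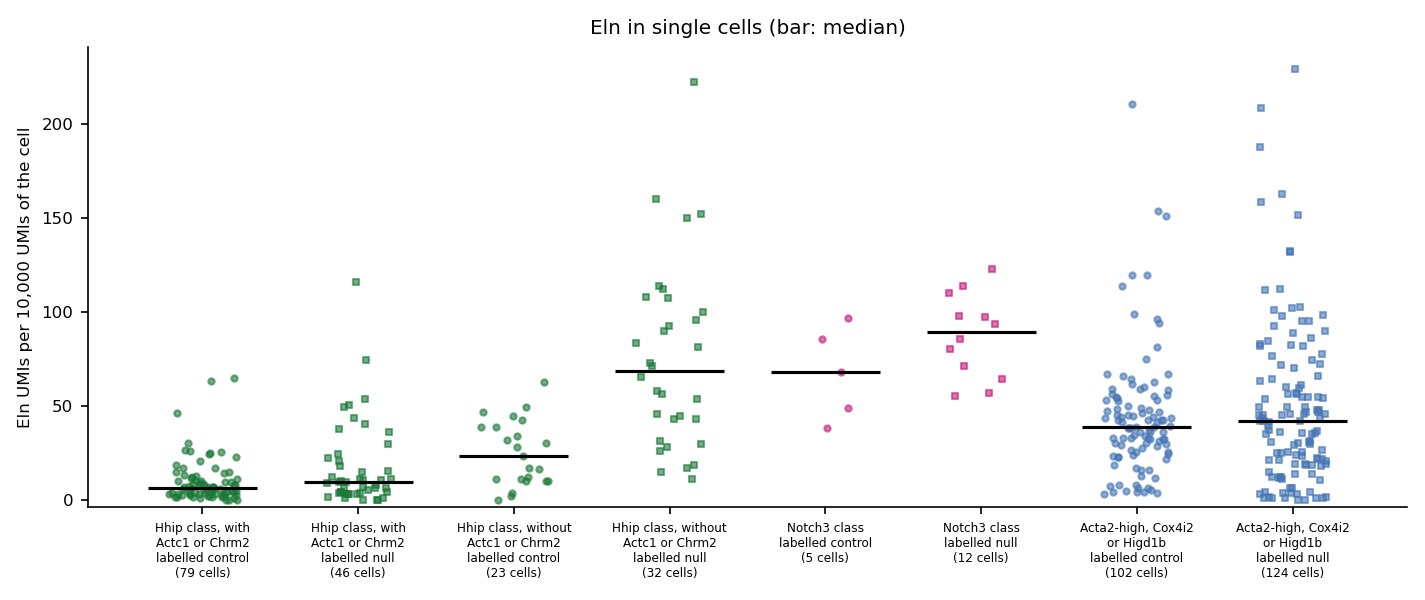
Eln UMIs per 10000 UMIs of each cell (y axis) by class and library (x axis). Points are cells and bars are medians, which were 6.27 and 9.48 in Hhip cells with Actc1 or Chrm2 (labelled control and null), 23.1 and 68.2 in those without, 67.6 and 89.3 in the Notch3 class and 38.7 and 42.0 in the Cox4i2/Higd1b cells.

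Beside Cxcl12 and Eln, the genes with the largest ratios that went the same way in both classes stood at up to 99.7 CPM in each library, except Apoe and Tcap. All but Apoe and Tcap reached 50 CPM in 1 library alone, which fixed their direction, as it did for Cxcl12. Gm13305, with 1 and 44 UMIs, shares its 3′ end with Il11ra1 and Il11ra2, so its counts are uncertain. Gm12840 had 13.6 and 99.7 CPM. Gpc4, a glypican that binds growth factors, had 12.5 and 53.5 CPM, a log2 ratio of 2.06 (1.13 to 3.20) against 0.06 in all other kept cells. Pdlim1, an adaptor on actin fibres that shares its 3′ end with 2 annotated copies, had 18.1 and 76.6 CPM, a log2 ratio of 2.05 (1.27 to 2.97). Tnfrsf12a, Mical2, Pdgfrl and Klf2 had log2 ratios from 1.43 to 1.92 at levels up to 86.4 CPM. Klf2 turned to -0.14 among cells with Y-linked UMIs alone and to -0.89 among Hhip cells with Actc1 or Chrm2, where Mical2 was at -0.023, and Pdgfrl shares its 3′ end with Uggt1. On the lower side, Mpp6 had 54.4 and 13.4 CPM, a log2 ratio of -1.98 (-3.12 to -1.06). Apoe, the lipid carrier, had 851 and 275 CPM, but 370 of its 751 UMIs labelled control lay in 1 cell, and without the top cell of each library the log2 ratio was -0.94. Tcap, a titin-binding protein of striated muscle, had 180 and 76.6 CPM (log2 ratio -1.23, -1.68 to -0.80) and was opposite in the Cox4i2/Higd1b cells at 1.05. Btbd3, Ninj1, Rnf19a, Cped1, 4931406C07Rik, Fnbp1 and Tpm3-rs7, which shares its 3′ end with Tpm3, had log2 ratios from -1.40 to -1.13. Igfbp3, which binds insulin-like growth factors, was named after its values were seen, with 120 and 24.3 CPM and 37 of 106 UMIs labelled control in 1 cell. It reached 50 CPM in the library labelled control alone, which fixed its direction.

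Eln was also compared among cells of 1 sex. In the Hhip class, the 80 cells labelled control with Y-linked UMIs alone had 1327 CPM, the 18 such cells labelled null 3010 CPM and the 43 cells labelled null with Xist alone 4588 CPM. The log2 ratio between the Y-linked groups was 1.18 (1.01 to 1.35), and between the Xist and Y-linked cells labelled null 0.61 (0.45 to 0.77). Over all smooth muscle cells the latter was 0.03 (-0.08 to 0.15), with 4512 and 4412 CPM of Eln. Tgfbi had 578, 1279 and 1311 CPM, a log2 ratio of 1.15 (0.88 to 1.41) between the Y-linked groups and 0.04 between the groups labelled null. Actc1 had 1544, 2421 and 1056 CPM. Its log2 ratio was 0.65 (0.47 to 0.83) between the Y-linked groups and -1.20 (-1.42 to -0.98) between the groups labelled null. For Des these were 0.99 (0.71 to 1.26) and -0.77 (-1.07 to -0.46), and for Acta2 0.05 and -0.11. Gm13305 had UMIs in the cells with Xist at 81.0 CPM and 0 UMIs in the cells labelled null with Y-linked UMIs. Embryo, sex and label cannot be told apart further with 1 library per label.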

How the data were processed

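The authors captured cells with 10x 3′ chemistry, aligned reads to mm10 with Cell Ranger 3.1 and deposited UMI counts of each gene in each cell, not normalized. A further pair of whole-lung matrices deposited by the authors holds expected counts, the UMI counts after SoupX had taken out free RNA, with no scaling for depth. The genes used to set that correction included Dcn, Bgn, Aspn, Mgp, Postn and Fos. The submitters' notes name Seurat 3.2.2, whose output was not used here. The other 4 libraries were used for their number of called cells alone.

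Cells were selected and classed on the corrected values, and raw UMIs were summed per group with Python 3.11.15, numpy 2.4.6, scipy 1.17.1 and pandas 2.3.3. Log2 ratios add 0.5 CPM. Levels carry exact Poisson, shares Clopper-Pearson, their difference Newcombe and ratios conditional binomial intervals at 95%. The self-test on simulated counts recovered the folds put in. Doublets were called with Scrublet in scanpy 1.11.5 and kept. No test was run, since each label had 1 library.

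Named between the libraries were the 10 genes with the largest ratio in each direction, ranked on the smaller of the raw and corrected ratio, that reached 50 CPM in 1 library and went the same way in both classes. Between classes these were the 12 genes most apart each way by the mean ratio of both libraries. Of the genes on the sex chromosomes, Xist, Tsix, Ddx3y, Uty, Kdm5d and Eif2s3y alone were left out of the genes named between the libraries. Genes of haemoglobin, mitochondria and ribosomal proteins were left out there as well. All of these stayed in the counts. Xist is thus among the genes counted as higher, and Ddx3y and Eif2s3y are among those counted as lower. The markers, the genes of the rule, Cxcl12, its receptors and up to 4 genes of each list were named as well. Members, lists and rules were chosen with earlier results of these data known. Places come from GENCODE M21 on mm10, promoters from RefSeq. Of 393 genes checked, 41 share a 60-base stretch of their last 300 bases with another gene. Alternatives were raw counts in the rule, Acta2 of at least 20, thinning, no Scrublet calls, corrected values, mean per-cell CPM, a pseudocount of 5 CPM, limits of 10 and 100 CPM, median-of-ratios scaling, each class alone and equal class weights. Chosen after seeing the data were cells of 1 sex, Hhip cells with and (for Eln) without Actc1 or Chrm2, leaving out the top cell, the Cox4i2/Higd1b cells and the split of the Hhip class. One gene of the contractile list is counted but not reported by name.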

Additional observations from a re-analysis of the deposited data

Results flagged for a closer look

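The log2 ratio between the libraries, labelled null over labelled control, had intervals past 0 in opposite directions in the Hhip class and in the Acta2-high cells with Cox4i2 or Higd1b and differed by at least 1 between them, for 4 genes. None of these differences was tested, since each label had 1 library. For Lox it was 1.38 (0.92 to 1.86) in the Hhip class and -0.61 (-0.98 to -0.25) in the other cells. For Mfap4, a microfibril gene, it was 0.13 (0.01 to 0.25) and -1.64 (-1.76 to -1.52), with 1551 and 1699 CPM in the Hhip class against 1609 and 516 CPM. For Igfbp5 it was -0.42 (-0.63 to -0.22) and 0.58 (0.44 to 0.73). For the surfactant gene Sftpc it was -3.42 (-4.01 to -2.91) and 2.002 (1.66 to 2.38). Corrected values of Sftpc were 0 in the Hhip class of both libraries, and 401 of its 459 raw UMIs in all smooth muscle cells labelled control lay in 1 cell.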

How the results depend on the processing

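No paired analysis was possible because each label had 1 library. The smooth muscle share labelled control was 1.07% with the rule on raw counts, the share labelled null 0.882% with Acta2 of at least 20, and the Notch3 class labelled null 5.10% of thinned cells. Genes higher in the library labelled null numbered 206 with corrected values alone, 10 at 100 CPM, 312 at 10 CPM, 622 in the Notch3 class alone, 147 with equal class weights, 119 in Y-linked cells and 29 in Hhip cells with Actc1 or Chrm2. Genes lower numbered 122, 9, 289, 960, 202 and 134 under the first 6 of these. In the Notch3 class against the Hhip class, 134 were higher and 208 lower at 100 CPM, and 516 and 1380 at 10 CPM. The limits in CPM change how many genes are tested and the other settings which cells or values enter, and further causes were not tested. In the Notch3 class labelled control, 2 UMIs made 52.7 CPM and so passed the limit of 50 CPM. The numbers tested under each setting are not given. These counts are therefore not read as more or less difference than those of the main rule. The limits in CPM cannot change the ratio of a named gene. Of the 240 values of named genes under the other alternatives, 202 stayed within their interval, 34 moved and 4 reversed. Those reversed were Gm13305 at -1.93 and Klf2 at -0.14 in Y-linked cells, and Mical2 at -0.023 and Klf2 at -0.89 in Hhip cells with Actc1 or Chrm2. Eln kept its direction in all of these, from 0.40 in the Notch3 class to 2.12 with corrected values, and was 3.12 with corrected values in the Hhip class. Depth limits the Notch3 class, with 37926 and 114471 UMIs, where 0 UMIs allow up to 79.1 and 26.2 CPM.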

Other observations

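Cell cycle genes were low in the smooth muscle cells. The 16 listed genes summed to 295 CPM (260 to 333) labelled control and 412 CPM (370 to 459) labelled null. Between classes 4 reached 50 CPM, of which 1, Hmgb2, did so in the Hhip class and the others through the Notch3 class alone, which fixed their direction. Hmgb2 had 42 and 81 UMIs (1107 and 708 CPM) in the Notch3 class and 105 and 97 UMIs (130 and 162 CPM) in the Hhip class. Ccnb2 had 9 and 15 UMIs against 0 and 4, Cenpf 7 and 8 against 4 and 4, and Ube2c 3 and 8 against 2 and 3. Cardiac marker UMIs came mainly from Tnnt2, cardiac troponin T, at 27.2 and 85.3 CPM in the Hhip class and 396 and 288 CPM in the Notch3 class. Gata6, a transcription factor gene of vessel muscle, had 16.1 and 25.1 CPM in the Hhip class and 211 and 288 CPM in the Notch3 class.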
